A study of Mus musculus with 9 samples.

Results

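A set of 9 transcription factor genes that give hepatocytes their identity were followed in the livers of mice with non-alcoholic steatohepatitis (NASH). They were chosen by symbol as Hnf4a, Cebpa, Cebpb, Foxa1, Foxa2, Foxa3, Onecut1, Nr5a2 and Prox1, which are 9 of the 24008 genes listed in the count table, and all 9 had enough counts to be among the 14379 genes tested. RNA from whole liver of 9 male C57BL/6J mice was sequenced, with 3 mice in each of 3 groups and 1 library for each mouse. The Flox group, wild type in the labels, was the study's floxed Irf4 control, and the F4MKO group lacked Irf4 in skeletal muscle through a Myl-Cre transgene. The F4MKO+FSTL1 group was F4MKO mice given an AAV8 vector in the gastrocnemius muscle that carried the muscle-secreted protein FSTL1 behind the muscle creatine kinase promoter. The study's methods place a GFP vector in the other groups, where the labels name no vector, and all 9 mice ate the same NASH diet, rich in fat and carbohydrate, with sugar in the drinking water. The mice entered the study at an adult age, and the passages of the methods differ on how long the diet lasted. No gene was deleted in the liver itself, so the comparisons ask how the liver's own factors differed when Irf4 and FSTL1 were altered in muscle.

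Hepatocytes keep their identity through a small network of DNA-binding proteins that hold one another and the genes of liver function active. HNF4A is a nuclear receptor that controls a large share of hepatocyte genes, the C/EBP factors are leucine zipper proteins with roles in metabolism and the acute-phase response, and the FOXA factors open chromatin so that others can bind. Onecut1 (HNF6) acts in liver and bile duct development, Nr5a2 (LRH-1) controls bile acid and cholesterol genes, and Prox1 is a homeobox factor of hepatocyte development that also represses nuclear receptors. Loss of HNF4A and C/EBPα function is known from injured and fibrotic liver.

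Total counts ran from 20656976 to 24322984 per library, and the 9 members together took 0.130% to 0.156% of a library's counts. In whole liver, fewer hepatocytes and less RNA of a gene in each hepatocyte cannot be told apart. The hepatocyte origin of the tissue was plain, since 27 measured genes of hepatocyte function summed to between 95575 and 146434 CPM, or counts per 1000000 after scaling by edgeR's TMM factors. The lowest of these sums, 95575 CPM, was that of an F4MKO library. Markers of other cell types were present at lower sums and differed between the groups, as given with the results that they accompany. Irf4 had 131, 132 and 101 counts in the Flox livers, 120, 128 and 130 in the F4MKO livers and 10, 92 and 116 in the F4MKO+FSTL1 livers. These liver counts do not check a deletion made in muscle.

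Promoter sequence is shown for Cebpa, the member that was called between groups, for Hnf4a, the next member in level, and for Foxa2 and Foxa1, whose intervals also left out 0 in the comparison that called Cebpa. Each run is the gene's strand, 5′ to 3′, from RefSeq on GRCm38.p6, taken from the 250 bases before a RefSeq start site without bases in annotated exons. Capitals mark matches to the short motifs searched.
Cebpa, chr7:35119043-35119292, plus strand: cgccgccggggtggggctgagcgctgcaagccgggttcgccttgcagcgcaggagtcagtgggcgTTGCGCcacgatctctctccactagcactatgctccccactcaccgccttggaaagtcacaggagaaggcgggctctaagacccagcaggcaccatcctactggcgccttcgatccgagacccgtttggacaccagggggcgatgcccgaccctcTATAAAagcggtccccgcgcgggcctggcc
Hnf4a upstream start, chr2:163506607-163506807, plus strand: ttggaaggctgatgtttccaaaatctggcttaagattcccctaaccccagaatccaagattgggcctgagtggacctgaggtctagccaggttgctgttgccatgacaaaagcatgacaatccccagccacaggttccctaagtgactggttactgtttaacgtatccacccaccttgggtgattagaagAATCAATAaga
Hnf4a downstream start, chr2:163546943-163547154, plus strand: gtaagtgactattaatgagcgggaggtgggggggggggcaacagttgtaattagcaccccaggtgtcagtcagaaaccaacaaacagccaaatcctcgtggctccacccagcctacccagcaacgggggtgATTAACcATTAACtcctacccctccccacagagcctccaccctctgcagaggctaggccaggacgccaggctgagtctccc
Foxa2, the most upstream of 3 starts, chr2:148046970-148047219, minus strand: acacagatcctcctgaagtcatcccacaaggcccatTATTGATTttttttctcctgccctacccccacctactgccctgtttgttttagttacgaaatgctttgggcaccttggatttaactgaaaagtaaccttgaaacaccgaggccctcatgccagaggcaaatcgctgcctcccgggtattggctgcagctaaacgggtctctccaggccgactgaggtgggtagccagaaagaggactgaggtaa
Foxa1, chr12:57546122-57546361, minus strand: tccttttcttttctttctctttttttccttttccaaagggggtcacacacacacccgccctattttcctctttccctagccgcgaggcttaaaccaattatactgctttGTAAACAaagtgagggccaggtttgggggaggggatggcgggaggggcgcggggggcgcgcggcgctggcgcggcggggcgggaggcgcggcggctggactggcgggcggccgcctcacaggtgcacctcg

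These regions lie outside the exons of the GENCODE vM21 annotation, and the second Hnf4a run and the Foxa1 run lie within the annotated gene bodies. Motifs were searched on both strands of 300-base windows, from 250 bases before to 50 bases after a start site. All 9 members had entries, with 14 windows among the 32851 of all genes. The Cebpa window held TATAAA, the core of the TATA box, 30 bases before the start, as 13.6% of all windows did, and TTGCGC, part of a C/EBP site, 185 bases before it (6.49% of all windows). In the upstream Hnf4a window the ONECUT motifs ATTGATT (2.86% of all windows) and ATCAATA (2.05%) overlapped in one stretch of the reverse and forward strands, starting 60 and 59 bases before the start. The same ONECUT motifs overlapped in the most upstream Foxa2 window, 213 and 214 bases before its start. Of the other Foxa2 windows, not printed, the most downstream held TATAAA 208 bases and GTTAAT 176 bases before its start, both on the reverse strand. The downstream Hnf4a window held GTTAAT, part of an HNF1 site (7.1% of all windows), on the reverse strand 81 and 74 bases before the start. The Foxa1 window held the FOXA motif TGTTTAC (3.65%) on the reverse strand, 141 bases before the start. Neither the NR5A motif CAAGGTCA (1.56% of all windows) nor the HNF4 motif CAAAGTCC (1.42%) had a match in any of the 14 windows. These matches are letters in a window and not measured binding.

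The members spanned a wide range of levels. Divided by the length of their merged exons, CPM per kb over all 9 livers (mean ± SD, n = 9) were 152 ± 34.4 for Cebpa, 121 ± 11.4 for Hnf4a and 99.2 ± 15.0 for Cebpb. These 3 formed an upper tier. Cebpa exceeded Hnf4a in 8 of 9 livers, and Hnf4a exceeded Cebpb in 9 of 9, although in both pairs the ranges over livers overlapped. A gap followed, in which the mean of Cebpb was 6.48 times that of the next gene and no liver overlapped. The middle tier held Foxa3 at 15.3 ± 2.13, Foxa2 at 13.7 ± 3.36 and Prox1 at 12.5 ± 1.55 CPM per kb. Within it the order was not stable, since Foxa3 exceeded Foxa2 in 6 of 9 livers and Foxa2 exceeded Prox1 in 6 of 9. Nr5a2 stood at 8.34 ± 0.542 CPM per kb, below Prox1 in 9 of 9 livers with no overlap. Foxa1 was at 5.69 ± 1.55 CPM per kb, below Nr5a2 in 9 of 9 livers. Onecut1 was the lowest member at 1.28 ± 1.04 CPM per kb, and its mean was 4.44 times below that of Foxa1. In counts, Hnf4a made up 38.1% to 49.0% and Cebpa 23.9% to 34.8% of all member reads in a liver.

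**Figure D1:**
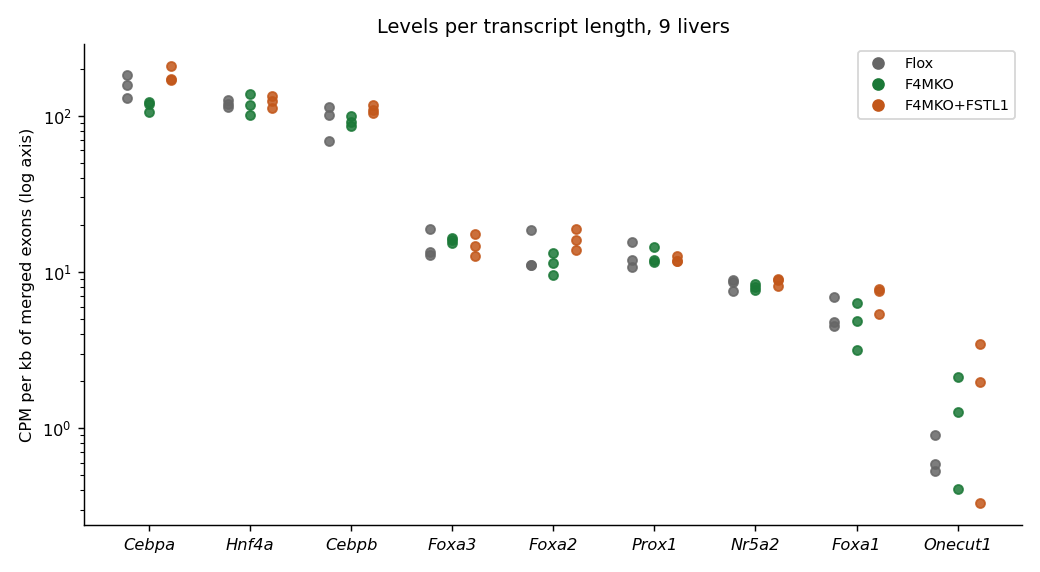
Levels of the 9 members in CPM per kilobase of merged exons (log axis), in order of their mean, with 1 point for each of 9 livers coloured by group. Cebpa, Hnf4a and Cebpb lie above all other members, and Onecut1, the lowest, runs from 0.330 to 3.43.

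Changes between groups were tested across all 14379 genes by the quasi-likelihood test of edgeR, adjusted by Benjamini-Hochberg, and a gene was called at an adjusted p under 0.05 with a fold change above 1.5. In F4MKO against Flox livers 0 of 9 members were called, where 0.271% of all tested genes were. In F4MKO+FSTL1 against F4MKO livers 1 of 9 members was called, Cebpa, which was higher, where 14.4% of all tested genes were called in either direction, 3.21% higher and 11.2% lower. In F4MKO+FSTL1 against Flox livers 0 of 9 members were called, where 0.00695% of all tested genes were. Of the 9 members, 7 had a positive log2 fold change in F4MKO+FSTL1 against F4MKO livers, with a median of 0.25 against 0.01 for all tested genes. In F4MKO against Flox livers 7 had a negative one (median -0.04, against -0.003 for all tested genes). In F4MKO+FSTL1 against Flox livers 7 had a positive one (median 0.21, against -0.0004). At an unadjusted p under 0.05 there were 1, 3 and 1 members in the respective comparisons. Of the 14379 tested genes 2424, 5080 and 1924 had such a p, which is also the background for the gene lists below. DESeq2 called the same number of members in each comparison as edgeR did. The 3 mice of one group did not overlap those of the other for 1 of 9 members in F4MKO against Flox (Cebpa, 21.8% of all genes), for 3 of 9 in F4MKO+FSTL1 against F4MKO (Cebpa, Cebpb and Foxa2, 39.0% of all genes) and for 0 of 9 in F4MKO+FSTL1 against Flox (18.2% of all genes). The first and second comparisons share the F4MKO libraries, so a low F4MKO value enters both.

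**Figure D2:**
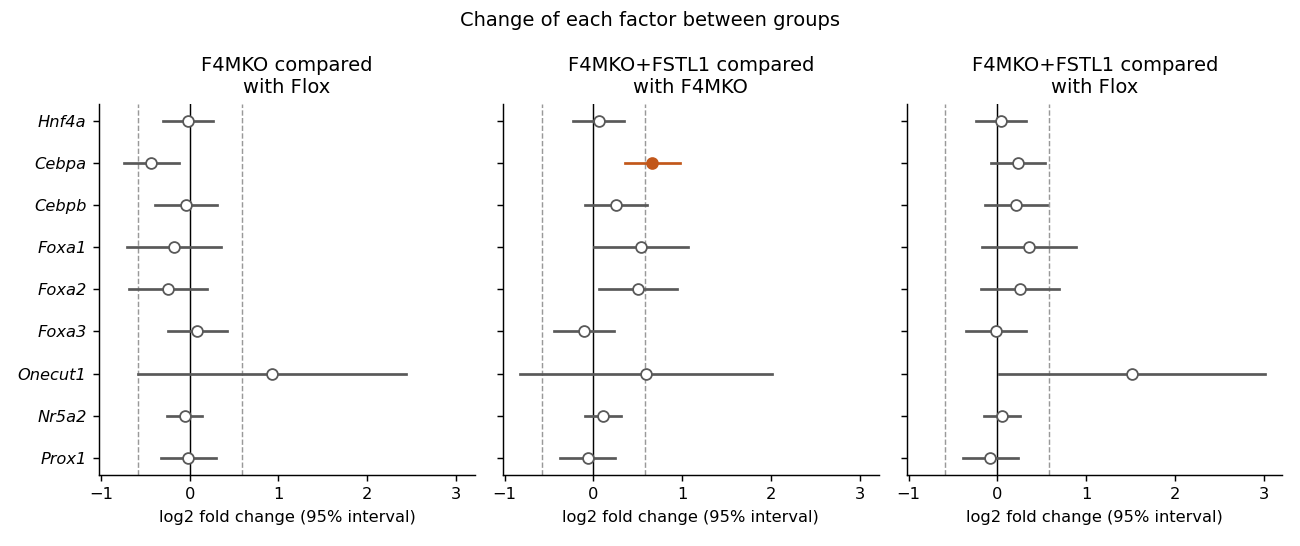
Log2 fold change of each member in the 3 comparisons, with 95% intervals from edgeR's quasi-likelihood fit, where dashed lines mark a fold change of 1.5 in each direction. The filled orange point is Cebpa in F4MKO+FSTL1 against F4MKO, the only member called (log2 fold change 0.66), and Onecut1 has the widest interval in each panel.

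Cebpa encodes C/EBPα, which drives genes of glucose, lipid and urea metabolism and holds back hepatocyte division. It is a gene without introns, annotated at chr7:35119293-35121928 (GRCm38). Its level was 482, 342 and 414 CPM in the Flox livers, 281, 324 and 314 CPM in the F4MKO livers and 454, 552 and 449 CPM in the F4MKO+FSTL1 livers. The F4MKO livers were thus below every liver of the other groups, and the F4MKO+FSTL1 livers overlapped the Flox livers. Group means were 413 ± 69.9 CPM in Flox, 306 ± 22.4 CPM in F4MKO and 485 ± 57.6 CPM in F4MKO+FSTL1 livers (SD, n = 3). In F4MKO+FSTL1 against F4MKO livers the log2 fold change was 0.66 (SE 0.14, edgeR adjusted p = 0.00823 with Benjamini-Hochberg adjustment), a fold change of 1.58 with a 95% interval of 1.28 to 1.96. Without F4MKO+FSTL1 replicate 2, the highest liver, the fold change was 1.48 with an adjusted p of 0.0412, and the gene was no longer called because it fell under the 1.5-fold threshold. In F4MKO against Flox livers the log2 fold change was -0.43 (SE 0.14, 95% interval -0.74 to -0.12), and its edgeR adjusted p of 0.167 did not pass (0.0668 to 0.470 over the alternatives). In F4MKO+FSTL1 against Flox livers it was 0.23 (edgeR adjusted p = 0.535), with a 95% interval from -0.08 to 0.54. The F4MKO livers also held the highest summed cholangiocyte markers (163 to 435 CPM, against 36.4 to 54.3 CPM in F4MKO+FSTL1 livers), of which Spp1 made up most and whose part in the Cebpa result was not tested.

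The rise of Cebpa was also measured within each library, against other hepatocyte transcripts. The ratio of Cebpa to Hnf4a counts was 0.871, 0.560 and 0.717 in the Flox livers, 0.574, 0.487 and 0.555 in the F4MKO livers and 0.841, 0.847 and 0.746 in the F4MKO+FSTL1 livers. Every F4MKO+FSTL1 ratio was above every F4MKO ratio. The log2 ratio was 0.59 higher in F4MKO+FSTL1 than in F4MKO livers (two-sided exact permutation p = 0.1, the smallest that 3 against 3 mice allow). Against the sum of the 27 hepatocyte function genes, the log2 difference between the same groups was smaller, at 0.42, again without overlap (two-sided exact permutation p = 0.1). Alb, at 1063714 to 1799972 counts in a library, weighs most in this sum. Against Flox livers the log2 ratio to Hnf4a differed by -0.39 in F4MKO and 0.20 in F4MKO+FSTL1 livers (exact permutation p = 0.2 and 0.4). The log2 ratio to the sum differed by -0.22 and 0.20 (exact permutation p = 0.2 and 0.4), and the groups overlapped each time. Both measures were chosen after the values had been seen, when Cebpa was known not to overlap between F4MKO+FSTL1 and F4MKO livers. They are therefore no separate test of that difference.

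**Figure D3:**
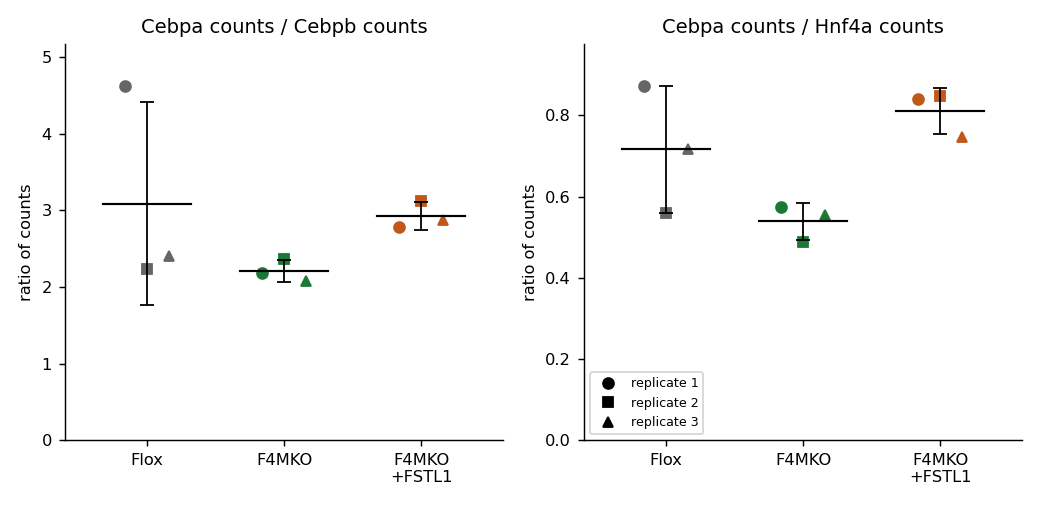
Ratio of Cebpa to Cebpb counts (left) and of Cebpa to Hnf4a counts (right) in each of 9 livers, with bars for the mean and SD of 3 mice in a group. In both panels the 3 F4MKO+FSTL1 livers lie above the 3 F4MKO livers, and Flox replicate 1 has the highest ratio, 4.62 on the left and 0.871 on the right.

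Cebpb encodes C/EBPβ, a factor of the acute-phase response and of regenerating liver that binds the same sites as C/EBPα. Its level was 104, 153 and 172 CPM in the Flox livers, 129, 137 and 151 CPM in the F4MKO livers and 163, 177 and 156 CPM in the F4MKO+FSTL1 livers. The F4MKO+FSTL1 livers lay above the F4MKO livers, but by a log2 fold change of 0.25 that did not pass the test (95% interval -0.10 to 0.60, edgeR quasi-likelihood adjusted p = 0.285). In F4MKO against Flox livers the log2 fold change was -0.04 (edgeR adjusted p = 0.918). Part of the Cebpb exon, 312 bases, is shared with Tmem189 on the opposite strand, whose counts ran from 377 to 642, and the strand setting of the counting was not stated.

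The balance of the 2 factors was taken from the counts of each library. Cebpa had 4.62, 2.24 and 2.41 times the counts of Cebpb in the Flox livers, 2.18, 2.36 and 2.08 times in the F4MKO livers and 2.78, 3.12 and 2.88 times in the F4MKO+FSTL1 livers. The log2 ratio was 0.41 higher in F4MKO+FSTL1 than in F4MKO livers, with no overlap (two-sided exact permutation p = 0.1, the smallest possible). It was -0.41 in F4MKO against Flox livers (exact permutation p = 0.2) and 0.00 in F4MKO+FSTL1 against Flox livers (exact permutation p = 1). Flox replicate 1 combined the highest Cebpa and the lowest Cebpb level of its group. Without it the log2 difference was -0.08 in F4MKO against Flox livers and 0.33 in F4MKO+FSTL1 against Flox livers.

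Hnf4a had 554, 611 and 578 CPM in the Flox livers, 490, 665 and 566 CPM in the F4MKO livers and 540, 651 and 602 CPM in the F4MKO+FSTL1 livers. The groups overlapped throughout, with means of 581 ± 29.0, 573 ± 87.6 and 598 ± 55.8 CPM (SD, n = 3). The log2 fold change was -0.02 in F4MKO against Flox (95% interval -0.30 to 0.27) and 0.06 in F4MKO+FSTL1 against F4MKO livers (95% interval -0.23 to 0.35, edgeR quasi-likelihood adjusted p = 0.774). Both intervals leave out a fold change of 1.5 in either direction. The gene spans chr2:163506808-163572910 (GRCm38) and has the upstream and downstream start sites shown above. Counts per gene do not tell transcripts of the 2 sites apart.

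Nr5a2 was the steadiest member. It had 50.8, 44.4 and 52.5 CPM in the Flox livers, 49.5, 47.0 and 45.5 CPM in the F4MKO livers and 53.2, 52.1 and 47.6 CPM in the F4MKO+FSTL1 livers. All 9 livers thus lay between 44.4 and 53.2 CPM. Its log2 fold changes were -0.06, 0.11 and 0.05 in F4MKO against Flox, F4MKO+FSTL1 against F4MKO and F4MKO+FSTL1 against Flox livers, and its widest 95% limit was 0.31.

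Among the FOXA factors, Foxa2 and Foxa1 were higher on average in F4MKO+FSTL1 than in F4MKO livers without being called, and Foxa3 was not. Foxa2, which also acts on lipid and bile acid genes, had 43.7, 26.3 and 26.3 CPM in the Flox livers, 27.1, 31.3 and 22.8 CPM in the F4MKO livers and 37.9, 32.5 and 44.8 CPM in the F4MKO+FSTL1 livers. The F4MKO+FSTL1 livers stood above the F4MKO livers without overlap, while the Flox group was split by replicate 1. The log2 fold change between F4MKO+FSTL1 and F4MKO was 0.50 (95% interval 0.06 to 0.94, edgeR quasi-likelihood adjusted p = 0.0970). Foxa1 had 23.0, 15.8 and 15.0 CPM in the Flox livers, 20.9, 16.1 and 10.5 CPM in the F4MKO livers and 25.2, 25.9 and 17.9 CPM in the F4MKO+FSTL1 livers. Its groups overlapped, and the log2 fold change for the same comparison was 0.54 (95% interval 0.01 to 1.07, edgeR adjusted p = 0.138). The adjusted p passed 0.05 for Foxa2 under 3 alternatives (lowest 0.0273) and for Foxa1 under 1 (0.0156), each time with a fold change under 1.5, so neither gene was called under any alternative. Foxa3, which supports glucose output in fasting, had 26.3, 27.4 and 38.3 CPM in the Flox livers, 33.8, 32.8 and 31.2 CPM in the F4MKO livers and 29.7, 35.6 and 25.6 CPM in the F4MKO+FSTL1 livers. Between F4MKO+FSTL1 and F4MKO livers its log2 fold change was -0.10 (95% interval -0.44 to 0.23, edgeR adjusted p = 0.665), opposite in sign to that of Foxa1 and Foxa2. The differences between the 3 FOXA genes were not tested.

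Prox1 had 99.4, 90.6 and 131 CPM in the Flox livers, 96.5, 99.5 and 122 CPM in the F4MKO livers and 98.9, 99.0 and 106 CPM in the F4MKO+FSTL1 livers. The groups overlapped, and its log2 fold changes were -0.01, -0.06 and -0.08 in the respective comparisons (edgeR quasi-likelihood adjusted p = 0.971, 0.782 and 0.886). An antisense gene, Prox1os, shares 133 exon bases with it and is not among the genes of the count table.

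Onecut1 varied widely between mice of a group. It had 54, 53 and 83 counts in the Flox livers, 246, 125 and 42 counts in the F4MKO livers and 302, 168 and 26 counts in the F4MKO+FSTL1 livers. In CPM the highest mouse of a group exceeded the lowest 1.70-fold in Flox, 5.19-fold in F4MKO and 10.4-fold in F4MKO+FSTL1 livers. The lowest and the highest liver of the whole series were thus in the same group. The SD of log2 CPM within groups was 1.23, larger than that of 99.7% of all tested genes, whereas that of Nr5a2, 0.0953, was larger than that of 10.7%. The log2 fold change was 1.52 in F4MKO+FSTL1 against Flox livers (95% interval 0.02 to 3.02, edgeR quasi-likelihood adjusted p = 0.366) and 0.59 in F4MKO+FSTL1 against F4MKO livers (95% interval -0.83 to 2.01, edgeR adjusted p = 0.549). Without F4MKO+FSTL1 replicate 1 the last value was -0.13, so its direction rested on that mouse. A same-strand lincRNA annotation, Gm20649, shares 2171 exon bases with Onecut1, and reads of the 2 cannot be told apart. Gm20649 is not among the genes of the count table.

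**Figure D4:**
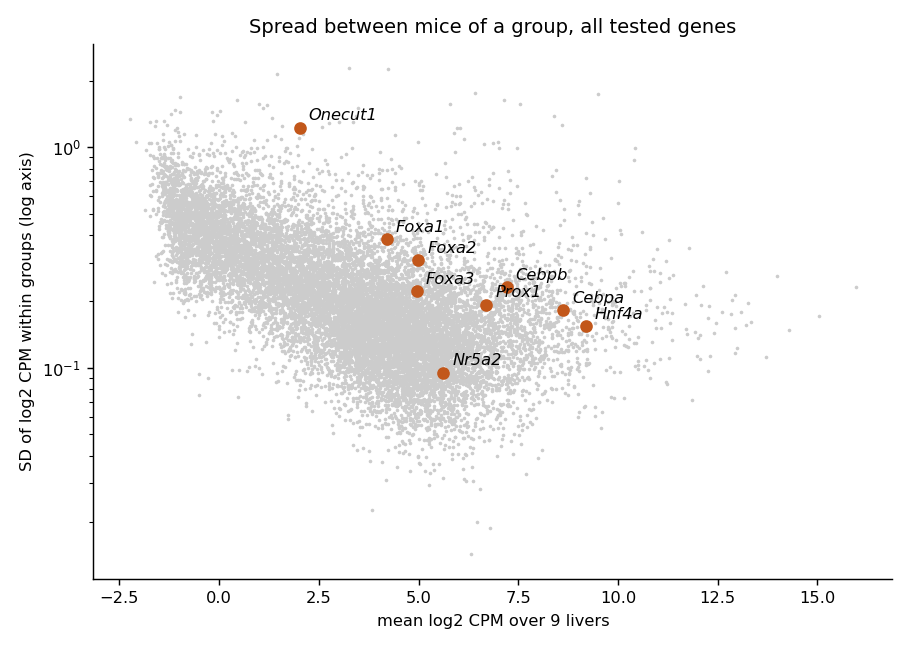
SD of log2 CPM within groups (log axis) against mean log2 CPM over 9 livers for all 14379 tested genes (grey), with the 9 members in orange. Onecut1, at an SD of 1.23, lies far above the cloud at its level, and Nr5a2, at 0.0953, lies lowest among the members.

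**Figure D5:**
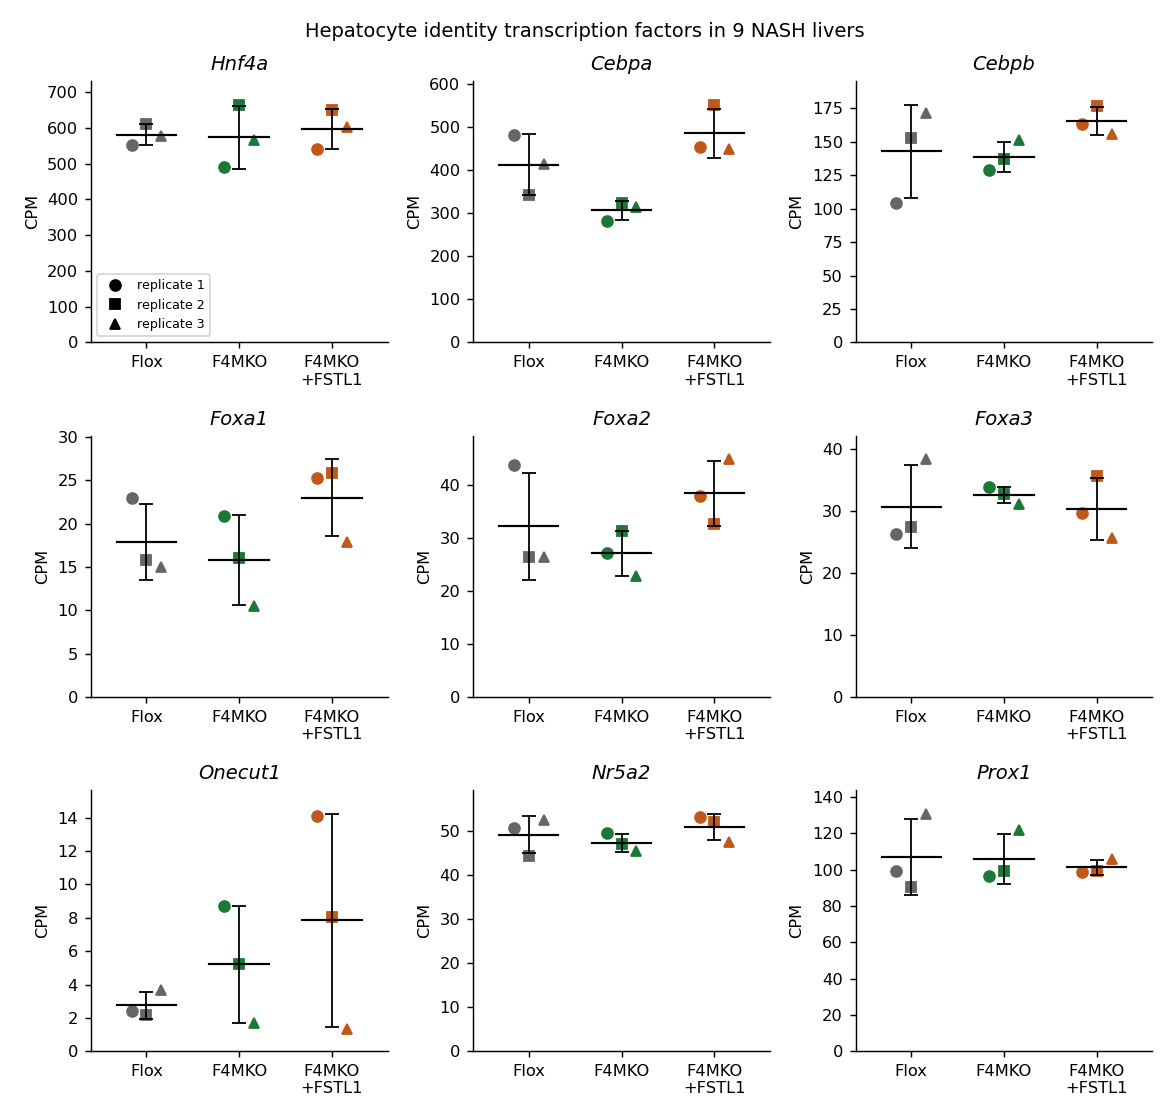
CPM of each member in 9 livers, with a symbol for the replicate number, lines for the mean and error bars for the SD of 3 mice in a group, and axes that start at 0. For Cebpa the 3 F4MKO livers (281 to 324 CPM) lie below all others, and the Onecut1 panel spans 1.36 to 14.1 CPM with the widest scatter inside groups.

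The members did not vary as one. Over the 9 livers, Pearson's r between log2 CPM of Cebpa and Hnf4a was 0.30, and between Cebpa and Foxa2 0.67. Cebpb and Foxa2 moved apart within groups, with an r of -0.90 after group means were removed. Onecut1 went with Nr5a2 (0.73) and Foxa1 (0.72) on the same measure. These pairs are named because their r was the largest in absolute size among all member pairs on that measure. With group means kept, their r was -0.29, 0.65 and 0.64. The points share libraries and scaling factors, so these values are given as descriptions. Among 9547 genes with a mean of at least 5 CPM, those most like Cebpa over 9 livers were Ggact (r = 0.99), 2300009A05Rik (0.99) and Fahd1 (0.98), and those most like Hnf4a were Slc22a5 (0.91), Slc25a34 (0.90) and Slc17a5 (0.85). For Cebpb they were Pms1 (0.97) and Pim3 (0.94), and for Prox1 Skiv2l2 (0.91), Rxrg (0.90) and Hmga1 (0.88). For Foxa1 they were Zbtb40 (0.96), Zfp708 (0.96) and Adgra3 (0.95), for Foxa2 Eif3j1, Cbx8 and Tfb1m (0.95 each), and for Foxa3 Kank2 (0.87) and Sall1 (0.85). For Onecut1 they were Ifnar1 (0.97), Tmem185b (0.95) and Zgpat (0.93), and for Nr5a2 Fbxo46 (0.94), Taok3 (0.89) and Taf12 (0.89). Each is the top of 9547 values of r over only 9 livers, so a high r is partly a product of the search. The r that unrelated genes would reach in such a search was not computed, and the named genes are not shown to be partners of a member.

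The relatives of the members were read from lists of factor families that also held the members themselves. Of 13 C/EBP and other leucine zipper factors tested, 5 were called higher and 0 lower in F4MKO+FSTL1 against F4MKO livers, where 3.21% of all tested genes were called higher and 11.2% lower. Their median log2 fold change was 0.25, the value of Cebpb and also the median of the members, against 0.01 for all genes. Besides Cebpa they were Dbp (log2 fold change 1.28, edgeR quasi-likelihood adjusted p = 0.0336), Tef (0.89, adjusted p = 0.00847), Hlf (0.68, adjusted p = 0.0127) and Cebpe (0.66, adjusted p = 0.00595). Dbp, Tef and Hlf form the PAR subfamily, whose RNA cycles through the day in liver, and the hour of collection was not in the sources used here. Tef went from 120.6 ± 29.4 CPM in Flox and 102 ± 22.4 CPM in F4MKO to 189 ± 11.9 CPM in F4MKO+FSTL1 livers (SD, n = 3). Cebpe, known from granulocyte maturation, had 12.6 ± 1.51, 8.29 ± 0.912 and 13.2 ± 1.05 CPM in the same order. In F4MKO against Flox livers its log2 fold change was -0.60 (edgeR adjusted p = 0.0653), which did not pass, and 0 of the 13 factors were called there or in F4MKO+FSTL1 against Flox livers by edgeR, with 4 and 2 at an unadjusted p under 0.05. Of 9 tested FOXA, ONECUT, NR5A, HNF4 and PROX genes 0 were called in any of the 3 comparisons by edgeR. At an unadjusted p under 0.05 there were 0, 3 and 2. Besides members, these 9 genes were only Onecut2 and Prox2, so the counts largely repeat the member results.

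Of 32 other transcription factors enriched in liver, 1 was called higher and 1 lower in F4MKO+FSTL1 against F4MKO livers. Over all tested genes the shares were 3.21% higher and 11.2% lower. A positive log2 fold change was found for 26 of 32, with a median of 0.24 against 0.01 for all tested genes. It was negative for 24 of 32 in F4MKO against Flox livers and positive for 23 of 32 in F4MKO+FSTL1 against Flox livers. Atf5 and Creb3l3 were also among the leucine zipper factors above. The factor called higher was Nr1i3, the xenobiotic receptor CAR (log2 fold change 0.85, edgeR quasi-likelihood adjusted p = 0.0221). The factor called lower was Gata6, found in several liver cell types (-0.62, edgeR adjusted p = 0.0164). In the other 2 comparisons 0 of the 32 were called, with 5 and 2 at an unadjusted p under 0.05. Of the 27 hepatocyte function genes 6 were called higher and 0 lower in F4MKO+FSTL1 against F4MKO livers, where 3.21% and 11.2% of all tested genes were. The largest differences among the called genes were in Serpina1e, a secreted protease inhibitor (log2 fold change 3.15, edgeR adjusted p = 0.00628), and Cyp2e1, which oxidizes ethanol and fatty acids (1.13, adjusted p = 0.00206). They were followed by Apoa2 (0.82), the bile acid transporter Slc10a1 (0.73) and the tyrosine-degrading enzyme Hpd (0.67). In the other 2 comparisons edgeR called 0 of the 27, with 8 and 3 at an unadjusted p under 0.05. Serpina1e has close paralogs in its gene cluster, among which the counting could divide reads.

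Markers of other liver cells moved with the same comparison. In F4MKO+FSTL1 against F4MKO livers, 5 of 6 tested cholangiocyte markers, 6 of 10 stellate cell markers and 7 of 10 macrophage markers were called lower in edgeR, as 11.2% of all tested genes were, and 0 of 10 endothelial and 0 of 7 lymphocyte markers were called (3 and 0 at an unadjusted p under 0.05). Among them were the cholangiocyte genes Muc1 (log2 fold change -2.65), Spp1 (-2.64), Epcam (-2.58), Krt7 (-1.93) and Krt19 (-1.87). The stellate cell genes with the largest falls were Col1a1 (-2.25), Col3a1 (-1.98), Col1a2 (-1.63), Pdgfrb (-0.88) and Lrat (-0.80), and the macrophage genes were Lyz2 (-1.19), Cd68 (-1.10), Cd5l (-1.02), Adgre1 (-0.96) and C1qb (-0.88). Summed cholangiocyte markers ran from 51.1 to 90.4 CPM in the Flox, 163 to 435 CPM in the F4MKO and 36.4 to 54.3 CPM in the F4MKO+FSTL1 livers, of which the defining Cftr was at 0 to 42 counts. Spp1, which macrophages also make, held 80.5% to 91.4% of this sum in a liver. Without it the other 5 summed to 8.96 to 12.8 CPM in the Flox, 19.5 to 37.3 CPM in the F4MKO and 6.58 to 10.6 CPM in the F4MKO+FSTL1 livers, a measure added after the values had been seen. Stellate cell markers summed to 426 to 496, 573 to 733 and 278 to 386 CPM in the same order, and macrophage markers to 760 to 1215, 981 to 1028 and 460 to 721 CPM. Hepatocyte function genes summed to 133458 to 137076, 95575 to 131943 and 128688 to 146434 CPM. In F4MKO against Flox livers the called genes among all markers were Epcam (log2 fold change 2.01, adjusted p = 0.0359) and Spp1 (2.05, adjusted p = 0.0404), both from the cholangiocyte list and both higher. The F4MKO livers, lowest in Cebpa, were thus the highest in summed cholangiocyte and stellate cell markers. Their summed hepatocyte function genes lay below those of every Flox liver and overlapped those of the F4MKO+FSTL1 livers. Hnf4a, Foxa1, Foxa3, Onecut1, Nr5a2 and Prox1 overlapped between all groups, and Cebpb and Foxa2 did not between F4MKO+FSTL1 and F4MKO livers. How far these marker sums bear on any member was not tested.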

How the data were processed

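Liver RNA of 9 mice was sequenced as paired-end reads on a BGIseq500. Per the study's methods and processing notes, reads were trimmed with Trim Galore 0.6.7, mapped to mm10 with HISAT2 2.2.1 and counted on genes with featureCounts 2.0.1. The authors deposited raw counts, 1 whole number for each gene and library. The annotation, strand setting and treatment of multi-mapping reads were not given in the sources used here.

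The counts went into edgeR 4.0.16 under R 4.3.3, with filterByExpr (minimum count 10, minimum total 15), TMM factors (0.927 to 1.17) and a quasi-likelihood fit of all 9 libraries with a mean per group. P-values were adjusted by Benjamini-Hochberg over the 14379 genes tested, and a gene was called at an adjusted p under 0.05 and a fold change above 1.5. CPM used TMM-scaled library sizes, log2 CPM a prior count of 2, and exon lengths came from GENCODE vM21. Mice are separate animals, and 3 in a group limit precision. Ratios within libraries were compared by two-sided exact permutation tests, with no further adjustment.

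The members and the gene lists were chosen with earlier results of these data known. All 9 members are named, and from other lists the genes called in a comparison with Flox and the 5 called with the largest change between F4MKO+FSTL1 and F4MKO. For each member, the 3 genes with the highest Pearson r are named, except 2 that are not reported here. Hnf4aos, R3hdml and Tmem189 were named after their values had been seen. The fit was tested on simulated data. Alternatives were DESeq2 1.42.0, its size factors in edgeR, no filter, the 6 libraries compared alone, a replicate block and each library left out. Calls were also made without the fold-change threshold. Other samples and assays of the study, and the liver gene Tf, were not analysed here.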

Additional observations from a re-analysis of the deposited data

How the results depend on the processing

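Each member log2 fold change had 14 alternative values. Of all these values 22 took the other sign while uncalled, and the others kept their sign. Among the calls of members, 1 was lost and 0 were gained. Leaving out single livers, the number of members called higher in F4MKO+FSTL1 compared with F4MKO ranged from 0 to 1, and was 0 without F4MKO+FSTL1 replicate 2. The log2 difference in the Cebpa to Cebpb ratio between F4MKO+FSTL1 and Flox livers, 0.00 in the report, ranged from -0.19 to 0.33 when single livers were left out, with -0.19 without Flox replicate 2, -0.14 without Flox replicate 3 and -0.05 without F4MKO+FSTL1 replicate 2. The same ratio differed by -0.60 to -0.08 between F4MKO and Flox livers and by 0.36 to 0.46 between F4MKO+FSTL1 and F4MKO livers. The cause of these shifts was not tested. Same-numbered mice are different animals, their deviations correlated by -0.10 to 0.30 across genes, and 3, 3 and 1 of 3 numbers in the respective comparisons matched best with themselves. With the number as a replicate block, the Cebpa log2 fold change in F4MKO+FSTL1 compared with F4MKO livers was 0.66, 1 member was called there as before, and calls over all genes went from 39 to 134, from 2070 to 2170 and from 1 to 15. Over all genes DESeq2 called 338, 2127 and 284, and edgeR without a filter called 478, 2397 and 379. With only the 6 libraries compared, edgeR called 11, 1916 and 0, the last in F4MKO+FSTL1 compared with Flox. Without F4MKO replicate 1 and without F4MKO+FSTL1 replicate 2, the calls over all genes in F4MKO+FSTL1 compared with F4MKO fell to 1335 and 1295, and those against Flox ranged over the livers left out from 0 to 100 in F4MKO and from 0 to 101 in F4MKO+FSTL1. The 3 mice in each group are the limit on small differences, and only Onecut1 among the members had fewer than 264 counts in any library.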

Other observations

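Hnf4aos, an antisense gene annotated within and beside Hnf4a at chr2:163493807-163541720 (GRCm38), had 73, 86 and 106 counts in the Flox livers, 32, 28 and 55 counts in the F4MKO livers and 95, 102 and 204 counts in the F4MKO+FSTL1 livers. The F4MKO livers were below every other liver. Its log2 fold change was 2.15 in F4MKO+FSTL1 against F4MKO livers (edgeR quasi-likelihood adjusted p = 0.00336 with Benjamini-Hochberg adjustment) and -1.35 in F4MKO against Flox livers (adjusted p = 0.121, which did not pass). Hnf4a itself had a log2 fold change of 0.06 in the first of these. The annotated exons of Hnf4aos share 0 bases with those of Hnf4a, but the strand setting of the counting was not stated, so reads of unspliced Hnf4a RNA and of its antisense partner cannot be told apart. R3hdml, a protein-coding gene that lies in the same antisense span, had a log2 fold change of 1.42 in F4MKO+FSTL1 against F4MKO livers (adjusted p = 0.0221) and -0.97 in F4MKO against Flox livers (adjusted p = 0.232). These genes were chosen after their values had been seen.

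Several members took the same extreme at the same replicate number in each group. Hnf4a was lowest in replicate 1 and highest in replicate 2 of all 3 groups, Foxa1 was lowest in replicate 3 of all 3 groups, and Prox1 was highest in replicate 3 of all 3 groups. The labels give no meaning to the numbers beyond naming the mice. With 3 mice in a group some genes take such a pattern by chance, and the share of all tested genes that did was not computed.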
